A study of Homo sapiens with 9 samples.

Results

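Messenger RNAs of the Wnt/β-catenin pathway were followed in cells of the human hepatocellular carcinoma line labelled Huh7 after silencing of KDM4C, a histone lysine demethylase. The genes were a list of 44 named by function, from ligands to nuclear factors, with WNT6 first. Of the 44, 43 were among the 32906 genes listed, and LEF1 was not among the listed genes. The 9 libraries came from cells transfected for 48 h, 3 with Scramble control siRNA, 3 with Si-KDM4C#1 and 3 with Si-KDM4C#2, all cultured alike in DMEM with serum and antibiotics and with no further treatment. The knockdown was transient and made in 1 cell line. The study's methods say in general that experiments were done in independent repeats, but neither they nor the labels tie this to the 3 libraries of a group as separate cultures. The p-values measure the spread between these libraries, part of which may be technical.

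In the absence of a Wnt ligand, a cytoplasmic destruction complex of AXIN, APC and the GSK3 kinases marks β-catenin for degradation. A secreted Wnt protein that binds a Frizzled receptor and an LRP co-receptor recruits the Dishevelled proteins, the complex is held inactive, and β-catenin enters the nucleus to act with TCF/LEF factors. The pathway is known for its part in liver zonation and regeneration, and activating changes in the β-catenin gene are frequent in hepatocellular carcinoma. All values here are mRNA levels, and neither β-catenin protein nor its location was measured.

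The libraries held 14597503 to 18058557 fragments each, recovered from the deposited FPKM values (fragments per kilobase of exon, scaled to the fragments of the library). KDM4C, the target of both siRNAs, was at 4.88, 4.63 and 4.57 FPKM in the Scramble libraries, at 1.18, 1.10 and 1.13 FPKM with Si-KDM4C#1 and at 0.256, 0.349 and 0.256 FPKM with Si-KDM4C#2, with no overlap between groups. Of 15 hepatocyte markers, 12 were listed, and all 12 were under 1 FPKM in every library, the highest at 0.248 FPKM. The summed level of the hepatocyte markers was 0.261 to 0.262 FPKM in Scramble, 0.0483 to 0.149 FPKM with Si-KDM4C#1 and 0.271 to 0.450 FPKM with Si-KDM4C#2, so the labelled cell type was not borne out by these mRNAs. Of 6 epithelial markers, the 5 listed summed to 440 to 460 FPKM in Scramble, 420 to 444 FPKM with Si-KDM4C#1 and 317 to 342 FPKM with Si-KDM4C#2, and CDH1 and KRT19 were under 1 FPKM in every library. The 6 mesenchymal markers summed to 92.9 to 103 FPKM, 104 to 106 FPKM and 139 to 141 FPKM in the same order. They did not move as 1 set: FN1 was more than 2-fold lower with both siRNAs (limma-trend, adjusted p under 0.05), and 2 were under 1 FPKM in every library. The listed endothelial (3 of 4) and blood cell markers (4 of 5) were all under 1 FPKM in every library. The part of these shifts in the values below was not tested.

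WNT6 encodes a secreted ligand, and the study chose this gene for follow-up from these libraries, so its fall is not independent evidence. Its gene (ENSG00000115596) occupies chromosome 2 from 218859821 to 218874233 in GRCh38, on the plus strand. GENCODE release 29 gives its coding transcript WNT6-201 4 exons, 1703 nucleotides and 365 codons. The study's real-time PCR primers for WNT6 are shown because they place the stretch of the mRNA that was followed by that second method, whose measurements were not analysed here. Both lie in exon 2 of WNT6-201 and enclose a product of 140 bases. They are written 5′ to 3′, and the reverse primer is complementary to the mRNA.
forward, chr2:218871048-218871068: tatggaccctaccagcatctg
reverse, chr2:218871168-218871187: ggaactggaactggcactct

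WNT6 mRNA was at 12.8, 10.1 and 11.9 FPKM in the Scramble libraries. The 3 libraries with Si-KDM4C#1 had 5.33, 3.78 and 4.64 FPKM, and those with Si-KDM4C#2 had 5.46, 5.28 and 4.65 FPKM. Neither siRNA group overlapped the higher Scramble group, and the ranges of the 2 siRNAs overlapped each other. These levels rest on 949, 385 and 419 WNT6 fragments summed over the 3 libraries of Scramble, Si-KDM4C#1 and Si-KDM4C#2. The mean level with Si-KDM4C#1 was 39.6% of the Scramble mean, and with Si-KDM4C#2 it was 44.3%. On the log2(FPKM + 1) scale used for every fold change here, WNT6 fell by 1.18 with Si-KDM4C#1 (SE 0.11, limma-trend, Benjamini-Hochberg adjusted p = 1.1e-05) and by 1.03 with Si-KDM4C#2 (SE 0.11, limma-trend, adjusted p = 3.82e-05). The siRNAs differed by 0.14 in log2 (95% interval -0.11 to 0.39, limma-trend, adjusted p = 0.301), and KDM4C itself was lower with Si-KDM4C#2. The 6 knockdown against the 3 Scramble libraries gave p = 0.0238 in a two-sided exact permutation test, the smallest that 84 splits allow. With 3 against 3 libraries the exact permutation p was 0.1 for each siRNA, the smallest that 20 splits allow. The fall with Si-KDM4C#2 was close to the 2-fold limit: without Scramble replicate 1 it was -0.97 (limma-trend, adjusted p = 2.02e-04) and without Si-KDM4C#2 replicate 3 it was -0.98 (limma-trend, adjusted p = 2.65e-04).

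**Figure D1:**
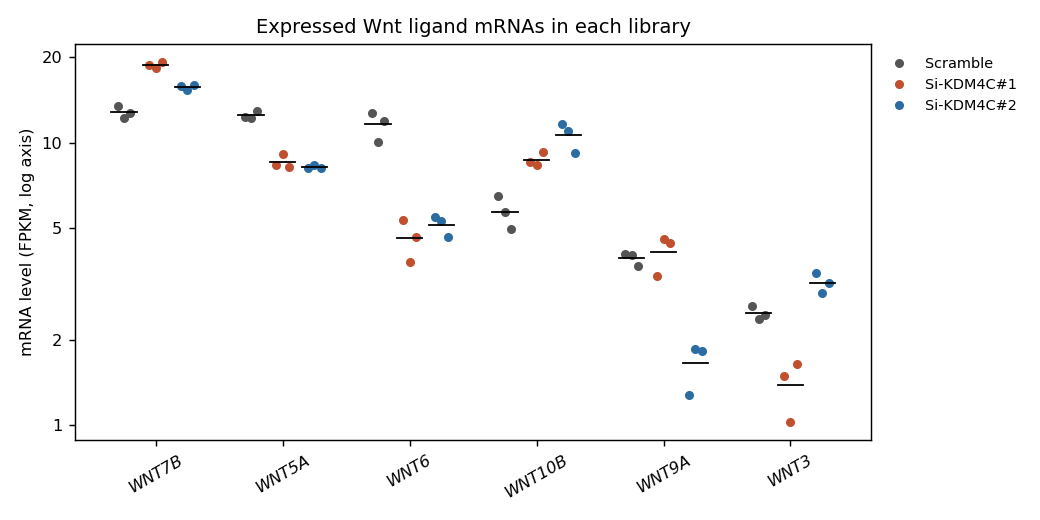
mRNA level in FPKM (log axis) of the 6 Wnt ligands that were tested, in 3 Scramble, 3 Si-KDM4C#1 and 3 Si-KDM4C#2 libraries; points are libraries and bars are group means. WNT6 lies at 10.1 to 12.8 FPKM in Scramble and at 3.78 to 5.46 FPKM in the knockdown libraries, while WNT10B is higher in all 6 knockdown libraries.

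Of the 43 listed genes, 34 reached a mean of 1 FPKM in 1 or more groups and were tested, 1 of them (TCF7L1) only through the Si-KDM4C#2 group. A gene was called where the adjusted p was under 0.05 and the fold change over 2. With Si-KDM4C#1, AXIN1 and PORCN were called higher and WNT6 and LGR4 lower, 4 of 34 (11.8%), where 8.87% of all 14363 genes tested were called (4.04% higher and 4.83% lower). With Si-KDM4C#2, AXIN1 was called higher and WNT6 lower, 2 of 34 (5.88%), where 4.89% of all genes were called (2.60% higher and 2.30% lower). These shares are near the background, so the list as a whole did not stand out in the number called. Compared with each other, the siRNAs differed in 3 of 34 genes (8.82%): DVL2 and LGR4 were higher and PORCN lower with Si-KDM4C#2 than with Si-KDM4C#1, where 6.91% of all genes were called (4.41% higher and 2.49% lower).

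By adjusted p alone, with no limit on size, 17 genes of the list rose and 11 fell with Si-KDM4C#1 (65.7% of all genes tested passed, 31.7% upward and 33.9% downward), and 14 rose and 12 fell with Si-KDM4C#2 (59.4% of all genes passed, 34.4% upward and 25.0% downward). Between the siRNAs, 10 were higher and 14 lower with Si-KDM4C#2 (62.4% of all genes passed, 35.9% higher and 26.5% lower). The 34 genes had a median log2 fold change of 0.15 in the Si-KDM4C#1 comparison and 0.10 in the Si-KDM4C#2 comparison, and over all genes tested it was -0.03 and 0.06. Both comparisons share the Scramble libraries. The genes that rose with each siRNA were WNT7B, WNT10B, FZD6, LRP5, DVL1, DVL3, AXIN1, GSK3A, GSK3B and TLE1, 10 of 34, and 19.4% of all genes did so. Those that fell with each were WNT6, WNT5A, FZD3, APC and LGR4, 5 of 34, and 15.2% of all genes did so. Other genes went opposite ways. FZD5, CTNNB1, ZNRF3, PORCN and WLS rose with Si-KDM4C#1 and fell with Si-KDM4C#2, and DVL2 and NOTUM did the reverse, where 4.11% and 5.66% of all genes showed these patterns. The rise of CTNNB1 with Si-KDM4C#1 turned to -0.04 under quantile normalization, and that of NOTUM with Si-KDM4C#2 to -0.07 after GC adjustment. Among the shared rises, WNT7B, LRP5 and GSK3A with Si-KDM4C#2 did not pass after GC adjustment. FZD6 did not pass with either siRNA under quantile normalization. The shared fall of FZD3 did not pass with either siRNA after GC adjustment.

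**Figure D2:**
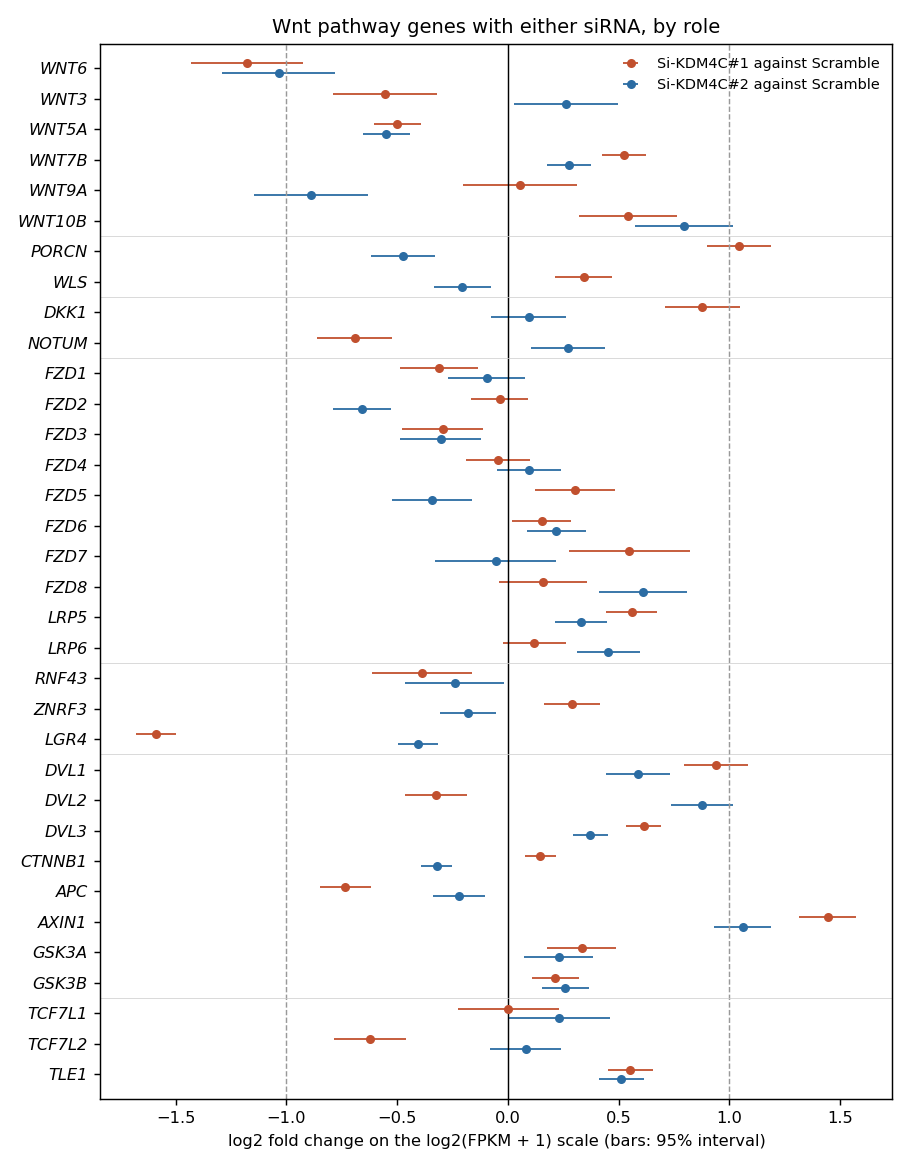
log2 fold change on the log2(FPKM + 1) scale of the 34 tested genes with Si-KDM4C#1 and with Si-KDM4C#2 against Scramble, grouped by role; points are fitted values from 3 libraries a group, bars are 95% intervals and dashed lines mark a 2-fold change. WNT6 lies past the lower line with both siRNAs and AXIN1 past the upper line, while PORCN, WLS, DVL2, CTNNB1 and NOTUM lie on opposite sides of 0 (CTNNB1 not under quantile normalization, NOTUM not after GC adjustment).

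Among the 9 ligands, 6 were tested, and WNT6, WNT5A and WNT7B were the most abundant in Scramble. WNT7B, a ligand of the canonical branch, was at 13.4, 12.2 and 12.7 FPKM in Scramble, at 18.8, 18.3 and 19.3 FPKM with Si-KDM4C#1 and at 15.8, 15.3 and 15.9 FPKM with Si-KDM4C#2. All 6 knockdown libraries were above all Scramble libraries. WNT7B rose by 0.52 with Si-KDM4C#1 (SE 0.044, limma-trend, adjusted p = 4.18e-06) and by 0.28 with Si-KDM4C#2 (SE 0.044, limma-trend, adjusted p = 4.33e-04), and after adjustment of each library for exon GC content the latter was 0.00 (limma-trend, adjusted p = 0.98). WNT10B, also of the canonical branch, had 5.69 ± 0.761, 8.70 ± 0.471 and 10.6 ± 1.25 FPKM in Scramble, Si-KDM4C#1 and Si-KDM4C#2 (SD, n = 3 each). It rose by 0.54 (limma-trend, adjusted p = 8.53e-04) and 0.79 (limma-trend, adjusted p = 8.98e-05). WNT5A, a ligand best known for β-catenin-independent signalling, was at 12.5 ± 0.355, 8.54 ± 0.481 and 8.21 ± 0.125 FPKM in the same order (SD, n = 3 each), and fell by 0.50 (limma-trend, adjusted p = 1e-05) and 0.55 (limma-trend, adjusted p = 8.3e-06).

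The siRNAs parted for WNT3 and WNT9A. WNT9A was at 4.02, 3.99 and 3.67 FPKM in Scramble, 3.37, 4.55 and 4.40 FPKM with Si-KDM4C#1 and 1.284, 1.86 and 1.83 FPKM with Si-KDM4C#2. Only the Si-KDM4C#2 libraries were apart from Scramble, with a log2 fold change of -0.89 (limma-trend, adjusted p = 1.15e-04) against 0.06 with Si-KDM4C#1 (limma-trend, adjusted p = 0.687), and the siRNAs differed by -0.94 (limma-trend, adjusted p = 6.51e-05). The fall of WNT9A passed 2-fold with a pseudocount of 0.1 FPKM (-1.20, limma-trend, adjusted p = 1.29e-04), after GC adjustment (-1.09, limma-trend, adjusted p = 4.57e-05) and with limma voom on fragments (-1.30, adjusted p = 4.33e-09). The difference between the siRNAs passed 2-fold under quantile normalization (-1.06), median-ratio scaling (-1.01), a pseudocount of 0.1 FPKM (-1.27) and limma voom (-1.42), and without Si-KDM4C#1 replicate 1 (-1.05), with adjusted p-values up to 7.63e-05. WNT3 was at 2.49 ± 0.137 FPKM in Scramble, and Si-KDM4C#1 gave 1.39 ± 0.325 FPKM where Si-KDM4C#2 gave 3.19 ± 0.259 FPKM (SD, n = 3 each), and the siRNAs differed by 0.82 (limma-trend, adjusted p = 9.42e-05). That difference passed 2-fold with a pseudocount of 0.1 FPKM (1.16) and with limma voom (1.08). WNT4, WNT5B and WNT11 were below the filter, with group means from 0.0362 to 0.676 FPKM. Of these, WNT5B passed both limits in limma voom with Si-KDM4C#1 (-1.60, adjusted p = 0.0128). That value is near the floor, resting on 12, 10 and 18 fragments in Scramble and 7, 1 and 6 with Si-KDM4C#1.

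The summed level of the 9 ligand mRNAs was 49.8 ± 2.76, 46.6 ± 1.275 and 45.3 ± 1.36 FPKM in Scramble, Si-KDM4C#1 and Si-KDM4C#2 (SD, n = 3 each). Within this sum the share of WNT6 was 23.2 ± 1.54% in Scramble, and in the knockdown groups it was 9.83 ± 1.61% (Si-KDM4C#1) and 11.3 ± 0.610% (Si-KDM4C#2). The share of WNT7B was 25.6 ± 0.240%, 40.3 ± 0.295% and 34.6 ± 1.58%, and that of WNT10B was 11.4 ± 1.34%, 18.7 ± 0.498% and 23.4 ± 2.099%. WNT6, the smallest of the 3 leading shares in Scramble, was exceeded by WNT7B, WNT10B and WNT5A in both knockdown groups. These sums and shares are given without a test. In these bulk samples, fewer cells that express a gene and less RNA per cell cannot be told apart.

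**Figure D3:**
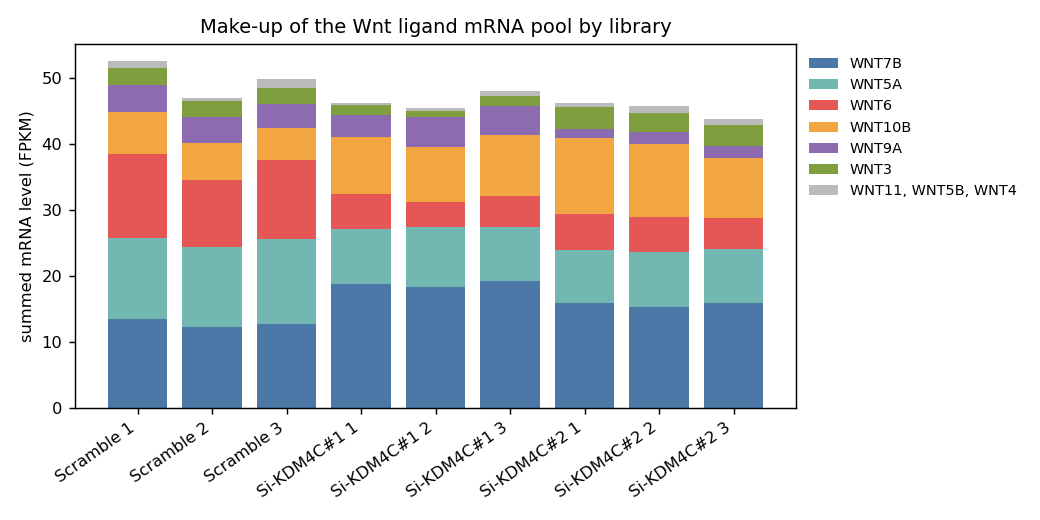
Summed mRNA level in FPKM of the 9 Wnt ligands in each of the 9 libraries, stacked by ligand. The sums average 49.8, 46.6 and 45.3 FPKM in Scramble, Si-KDM4C#1 and Si-KDM4C#2, while the WNT6 layer narrows and the WNT7B and WNT10B layers widen in the knockdown libraries.

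Ligand processing was represented by PORCN, the acyltransferase that attaches a lipid to Wnt proteins, and WLS, the carrier that brings them to the cell surface. PORCN was at 6.01, 5.35 and 5.97 FPKM in Scramble, 13.4, 11.8 and 13.7 FPKM with Si-KDM4C#1 and 3.81, 4.01 and 3.80 FPKM with Si-KDM4C#2. No 2 groups overlapped, and Scramble lay between the siRNAs. PORCN rose by 1.04 with Si-KDM4C#1 (SE 0.064, limma-trend, adjusted p = 5.83e-07) and fell by 0.47 with Si-KDM4C#2 (SE 0.064, limma-trend, adjusted p = 1.7e-04). The siRNAs differed by -1.52 (95% interval -1.66 to -1.37, limma-trend, adjusted p = 8.51e-08). The rise with Si-KDM4C#1 was under 2-fold after GC adjustment (0.91, limma-trend, adjusted p = 1.52e-06) and without Scramble replicate 2 (0.997, limma-trend, adjusted p = 4.64e-06).

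WLS followed the same order of groups, at 16.4, 15.7 and 15.3 FPKM in Scramble, 18.8, 22.1 and 20.1 FPKM with Si-KDM4C#1 and 13.3, 13.7 and 13.8 FPKM with Si-KDM4C#2. It rose by 0.34 (limma-trend, adjusted p = 4.72e-04) and fell by 0.21 (limma-trend, adjusted p = 0.0111), both under 2-fold.

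The receptors comprised 8 Frizzled genes and the co-receptors LRP5 and LRP6. All 10 were tested and none was called with either siRNA or between them in limma-trend. By adjusted p alone, 6 passed with Si-KDM4C#1 and 7 with Si-KDM4C#2, where 65.7% and 59.4% of all genes passed. With limma voom on fragments, FZD5 passed 2-fold between the siRNAs (-1.03, adjusted p = 1.17e-10). LRP5 was at 18.5, 18.2 and 17.7 FPKM in Scramble, 28.95, 25.6 and 27.0 FPKM with Si-KDM4C#1 and 23.9, 23.2 and 21.9 FPKM with Si-KDM4C#2, with no overlap between groups. It rose by 0.56 (SE 0.051, limma-trend, adjusted p = 8.19e-06) and by 0.33 (SE 0.051, limma-trend, adjusted p = 4.04e-04), and after GC adjustment the latter was 0.06 (limma-trend, adjusted p = 0.367). LRP6 was at 4.27 ± 0.159, 4.73 ± 0.433 and 6.22 ± 0.217 FPKM in Scramble, Si-KDM4C#1 and Si-KDM4C#2 (SD, n = 3 each), and rose with Si-KDM4C#2 only (0.45, limma-trend, adjusted p = 2e-04), the siRNAs differing by 0.33 (limma-trend, adjusted p = 0.00123).

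FZD2 and FZD6 were the most abundant Frizzled mRNAs in Scramble. FZD2 was at 22.1, 19.95 and 21.2 FPKM in Scramble, 21.3, 19.2 and 21.2 FPKM with Si-KDM4C#1 and 13.5, 12.3 and 13.2 FPKM with Si-KDM4C#2. Si-KDM4C#1 overlapped Scramble and Si-KDM4C#2 did not, and the siRNAs differed by -0.62 (limma-trend, adjusted p = 1.11e-05). FZD6 was at 20.4 ± 1.62, 22.8 ± 0.686 and 23.9 ± 1.15 FPKM (SD, n = 3 each). Its rises of 0.15 and 0.22 passed the test but not under quantile normalization (limma-trend, adjusted p = 0.920 and 0.215). FZD8 rose with Si-KDM4C#2, from 6.95 ± 0.692 to 11.1 ± 0.954 FPKM (SD, n = 3 each, limma-trend, adjusted p = 2.43e-04). FZD7 rose with Si-KDM4C#1, from 2.18 ± 0.436 to 3.64 ± 0.524 FPKM (SD, n = 3 each, limma-trend, adjusted p = 0.0029). FZD3 fell with both, from 2.18 to 1.59 and 1.58 FPKM, although not after GC adjustment (limma-trend, adjusted p = 0.880 and 0.128). FZD4 did not pass with either siRNA, with log2 fold changes of -0.04 (95% interval -0.19 to 0.10) and 0.10 (95% interval -0.05 to 0.24), and 19.0% of its exon bases overlap PRSS23 on the opposite strand. The source gives no strand setting, so reads of such pairs cannot be told apart. The summed Frizzled level was 63.6 ± 1.15, 67.1 ± 1.83 and 61.8 ± 1.27 FPKM (SD, n = 3 each).

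LGR4, a receptor for R-spondins, which amplify Wnt signalling by removing the receptor-degrading ligases RNF43 and ZNRF3 from the surface, had the largest fall of the 34 genes with Si-KDM4C#1. It was at 28.6, 29.1 and 28.5 FPKM in Scramble, 8.92, 9.14 and 8.59 FPKM with Si-KDM4C#1 and 22.3, 20.8 and 21.3 FPKM with Si-KDM4C#2, with no overlap between groups. The level with Si-KDM4C#1 was 30.9% of the Scramble mean, and with Si-KDM4C#2 it was 74.7%. LGR4 fell by 1.59 (SE 0.040, limma-trend, adjusted p = 5.77e-09) and by 0.40 (SE 0.040, limma-trend, adjusted p = 1.9e-05). The difference between the siRNAs was 1.18 (95% interval 1.09 to 1.27, limma-trend, adjusted p = 2.45e-08), and KDM4C itself was lower with Si-KDM4C#2.

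LGR5, the R-spondin receptor known as a Wnt target and stem cell marker, was near the floor. It had 1, 1 and 4 fragments in the Scramble libraries, 19, 11 and 16 fragments in those of Si-KDM4C#1 and 14, 6 and 13 in those of Si-KDM4C#2, and the knockdown libraries were all above Scramble. At 0.178 ± 0.0302 and 0.130 ± 0.0510 FPKM against 0.0230 ± 0.0186 FPKM (SD, n = 3 each) it was below the filter. In the same fit over all listed genes it rose by 0.20 (limma-trend, adjusted p = 0.00574) and 0.14 (limma-trend, adjusted p = 0.0354), values that the pseudocount of 1 FPKM makes small. Limma voom on the recovered fragments gave 2.89 (adjusted p = 1.44e-04) and 2.25 (adjusted p = 0.00345).

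The ligase ZNRF3 rose with Si-KDM4C#1, from 3.60 ± 0.157 to 4.63 ± 0.218 FPKM, and fell with Si-KDM4C#2, to 3.06 ± 0.119 FPKM (SD, n = 3 each, limma-trend, adjusted p = 0.00132 and 0.0201). RNF43 was at 3.79 ± 0.342, 2.68 ± 0.486 and 3.05 ± 0.109 FPKM (SD, n = 3 each), and fell with Si-KDM4C#1 (-0.39, limma-trend, adjusted p = 0.0067). RNF43 is uncertain, since 57.6% of its exon bases are shared with AC004687.2 on the same strand and 20.3% with TSPOAP1-AS1 on the opposite strand.

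**Figure D4:**
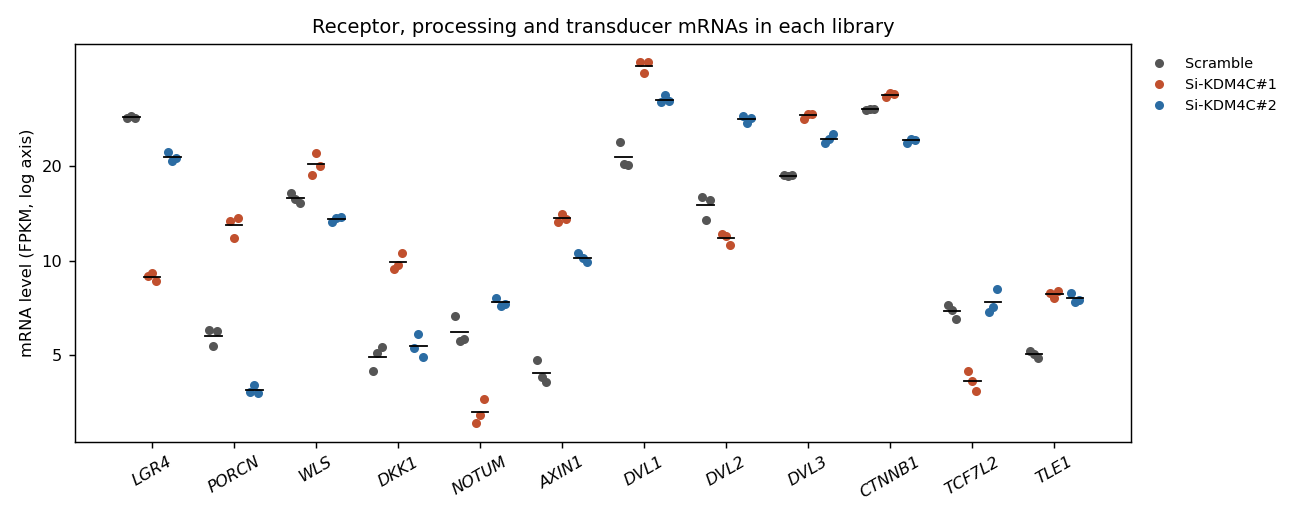
mRNA level in FPKM (log axis) of 12 genes for R-spondin reception, ligand processing, secreted antagonism, transduction and nuclear action, in the 3 libraries of each group; points are libraries and bars are group means. LGR4 is lowest and PORCN, DKK1 and AXIN1 are highest with Si-KDM4C#1, and DVL2 is highest with Si-KDM4C#2.

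Of the secreted antagonists, DKK1, which blocks the LRP co-receptors and is itself a Wnt target, was at 4.44, 5.07 and 5.29 FPKM in Scramble, 9.41, 9.69 and 10.6 FPKM with Si-KDM4C#1 and 5.26, 5.83 and 4.92 FPKM with Si-KDM4C#2. The Si-KDM4C#1 libraries were above all others, and the Si-KDM4C#2 libraries overlapped Scramble. DKK1 rose by 0.88 with Si-KDM4C#1 (SE 0.076, limma-trend, adjusted p = 5.23e-06), and the difference between the siRNAs was -0.78 (limma-trend, adjusted p = 1.4e-05). With limma voom on fragments the rise was 1.06 (adjusted p = 2.28e-10) and after GC adjustment 1.01 (limma-trend, adjusted p = 2.79e-06), both past 2-fold.

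NOTUM, an enzyme that removes the lipid from Wnt proteins, went the other way. It was at 6.65, 5.54 and 5.62 FPKM in Scramble, 3.03, 3.22 and 3.63 FPKM with Si-KDM4C#1 and 7.59, 7.19 and 7.30 FPKM with Si-KDM4C#2, with no overlap. The log2 fold changes were -0.69 (limma-trend, adjusted p = 2.58e-05) and 0.27 (limma-trend, adjusted p = 0.0109), and the latter turned to -0.07 after GC adjustment (limma-trend, adjusted p = 0.288). The siRNAs differed by 0.96 (limma-trend, adjusted p = 3.32e-06), and by 1.02 without Si-KDM4C#1 replicate 3 (limma-trend, adjusted p = 1.11e-05). That difference was 1.14 with a pseudocount of 0.1 FPKM and 1.04 with limma voom. SFRP1, a decoy for Wnt ligands, held 2, 1 and 10 fragments summed over the 3 libraries of each group, and the feedback inhibitors NKD1 and NKD2 held at most 2.

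All 8 tested genes of the cytoplasmic transducers and destruction complex passed an adjusted p of 0.05 with each siRNA, as did 65.7% and 59.4% of all genes, and AXIN1 alone was called. With each siRNA 6 of the 8 rose, where 31.7% and 34.4% of all genes did. These were DVL1, DVL3, AXIN1, GSK3A and GSK3B with both, CTNNB1 with Si-KDM4C#1 (not under quantile normalization, -0.04) and DVL2 with Si-KDM4C#2. The rise of GSK3A with Si-KDM4C#2 depended on the scaling, as given below. AXIN1, the scaffold of the destruction complex, was at 4.82, 4.27 and 4.10 FPKM in Scramble, 13.3, 14.1 and 13.6 FPKM with Si-KDM4C#1 and 10.6, 10.2 and 9.91 FPKM with Si-KDM4C#2. Every knockdown library was above every Scramble library, and the siRNAs did not overlap. AXIN1 rose by 1.45 (SE 0.057, limma-trend, adjusted p = 4.18e-08) and by 1.06 (SE 0.057, limma-trend, adjusted p = 4.65e-07). The rise with Si-KDM4C#2 was under 2-fold with median-ratio scaling (0.99, limma-trend, adjusted p = 3.96e-07) and after GC adjustment (0.77, limma-trend, adjusted p = 5.12e-07).

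AXIN2, the paralog whose transcription is a widely used readout of β-catenin activity, was close to absent. It had 3, 5 and 2 fragments in the Scramble libraries, 0 in each Si-KDM4C#1 library and 1, 0 and 1 with Si-KDM4C#2. These counts, under or near the floor of 3 fragments, allow no statement about a change, and 25.2% of the exon bases of AXIN2 overlap AC004805.1 on the same strand.

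The Dishevelled genes, which carry the signal from the receptors to the destruction complex, summed to 55.2 ± 3.18, 82.9 ± 1.37 and 85.5 ± 0.733 FPKM in Scramble, Si-KDM4C#1 and Si-KDM4C#2 (SD, n = 3 each), and the genes behind these sums differed between the siRNAs. DVL1 was at 23.9, 20.3 and 20.2 FPKM in Scramble, 43.0, 39.8 and 43.0 FPKM with Si-KDM4C#1 and 32.0, 33.8 and 32.3 FPKM with Si-KDM4C#2. It rose by 0.94 (SE 0.064, limma-trend, adjusted p = 1.11e-06) and by 0.59 (SE 0.064, limma-trend, adjusted p = 3.87e-05), with no overlap between groups. The former passed 2-fold with limma voom on fragments (1.04, adjusted p = 1.24e-17) and without Scramble replicate 1 (1.01, limma-trend, adjusted p = 4.98e-07). DVL3 rose likewise, from 18.7 ± 0.0954 FPKM to 29.1 ± 0.612 and 24.5 ± 0.750 FPKM (SD, n = 3 each).

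DVL2 was at 15.995, 13.5 and 15.6 FPKM in Scramble, 12.1, 12.0 and 11.2 FPKM with Si-KDM4C#1 and 28.9, 27.6 and 28.6 FPKM with Si-KDM4C#2. Scramble lay between the siRNAs with no overlap. DVL2 fell by 0.32 with Si-KDM4C#1 (SE 0.062, limma-trend, adjusted p = 0.00122), rose by 0.88 with Si-KDM4C#2 (SE 0.062, limma-trend, adjusted p = 2.47e-06), and differed between the siRNAs by 1.20 (95% interval 1.06 to 1.34, limma-trend, adjusted p = 2.65e-07).

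CTNNB1, which encodes β-catenin, was the most abundant of the 43 mRNAs in Scramble and moved little. It was at 30.3, 30.6 and 30.6 FPKM in Scramble, 33.4, 34.2 and 33.9 FPKM with Si-KDM4C#1 and 23.8, 24.5 and 24.3 FPKM with Si-KDM4C#2. The groups did not overlap, and the changes were small: 0.15 with Si-KDM4C#1 (SE 0.031, limma-trend, adjusted p = 0.00219) and -0.32 with Si-KDM4C#2 (SE 0.031, limma-trend, adjusted p = 1.74e-05). The former turned to -0.04 under quantile normalization (limma-trend, adjusted p = 0.334), so its direction depends on the scaling. The tumour suppressor APC fell from 6.82 ± 0.326 FPKM to 3.70 ± 0.104 and 5.72 ± 0.226 FPKM (SD, n = 3 each, limma-trend, adjusted p = 1.39e-06 and 0.00495). The kinases GSK3A and GSK3B rose by 0.21 to 0.33, and the rise of GSK3A with Si-KDM4C#2 did not pass under quantile normalization, median-ratio scaling or GC adjustment (limma-trend, adjusted p = 0.103, 0.0712 and 0.0942).

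Of the TCF/LEF factors, which carry β-catenin to DNA, TCF7L2 was the most abundant. It was at 7.21, 6.98 and 6.52 FPKM in Scramble, 4.46, 4.13 and 3.83 FPKM with Si-KDM4C#1 and 6.85, 7.13 and 8.14 FPKM with Si-KDM4C#2. TCF7L2 fell by 0.62 with Si-KDM4C#1 (limma-trend, adjusted p = 3.97e-05), overlapped Scramble with Si-KDM4C#2 and differed between the siRNAs by 0.70 (limma-trend, adjusted p = 2.05e-05). TCF7L1 lay at 0.906, 0.909 and 1.24 FPKM and TCF7 at 0.130, 0.147 and 0.165 FPKM (group means). TLE1, a co-repressor that binds TCF factors, was at 5.14, 5.04 and 4.89 FPKM in Scramble, 7.89, 7.60 and 8.03 FPKM with Si-KDM4C#1 and 7.89, 7.39 and 7.50 FPKM with Si-KDM4C#2. TLE1 rose by 0.55 (SE 0.045, limma-trend, adjusted p = 3.77e-06) and 0.51 (SE 0.045, limma-trend, adjusted p = 9.9e-06), with no overlap with Scramble.

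The other genes of the pathway were taken from further lists by role. Of 25 other destruction complex and transducer genes, 22 were tested. With Si-KDM4C#1 CSNK1G3 and FRAT2 were called higher (9.09% of the 22, where 8.87% of all genes were called). With Si-KDM4C#2 FRAT2 was called higher and PPP2R5B lower (9.09%, where 4.89% of all genes were called). FRAT2, which binds GSK3 and keeps it from phosphorylating β-catenin, was at 7.96, 8.38 and 9.12 FPKM in Scramble, 24.8, 23.6 and 24.0 FPKM with Si-KDM4C#1 and 27.8, 27.0 and 26.8 FPKM with Si-KDM4C#2. It rose by 1.41 (limma-trend, adjusted p = 2.17e-08) and 1.57 (limma-trend, adjusted p = 3.51e-08), without overlap. FRAT1, named after its value was seen, was at 2.33, 2.35 and 2.94 FPKM (group means).

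Of 20 other nuclear factors, 18 were tested. With Si-KDM4C#1, 1 was called (5.56%, where 8.87% of all genes were called). With Si-KDM4C#2, 3 were called (16.7%, where 4.89% of all genes were called). AES, a short co-repressor of the TLE family, rose from 10.3 ± 1.03 FPKM to 26.9 ± 0.505 and 32.1 ± 0.998 FPKM (SD, n = 3 each, limma-trend, adjusted p = 1.06e-07 and 7.97e-08). PYGO2, a partner of BCL9 in the β-catenin complex, rose from 15.8 ± 1.55 FPKM to 28.5 ± 1.75 and 35.8 ± 0.442 FPKM (SD, n = 3 each), past 2-fold with Si-KDM4C#2, and the siRNAs differed by 0.32 (limma-trend, adjusted p = 0.00209). CTNNBIP1, an inhibitor that binds β-catenin, was at 2.98 ± 0.633, 5.67 ± 0.471 and 6.91 ± 0.446 FPKM (SD, n = 3 each). BCL9 was at 6.50 ± 0.215, 5.98 ± 0.239 and 13.9 ± 1.34 FPKM (SD, n = 3 each), and differed between the siRNAs by 1.09 (limma-trend, adjusted p = 7.58e-07).

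Of 15 other secreted or membrane inhibitors, 3 were tested. KREMEN2, a receptor for DKK proteins, was at 2.81, 1.23 and 2.01 FPKM in Scramble, 11.5, 8.31 and 11.05 FPKM with Si-KDM4C#1 and 2.098, 2.56 and 2.78 FPKM with Si-KDM4C#2. As with DKK1, the Si-KDM4C#1 libraries alone stood above Scramble, by 1.93 (limma-trend, adjusted p = 1.18e-05), and the siRNAs differed by -1.69 (limma-trend, adjusted p = 3.43e-05). None of the 7 listed of 10 other ligands reached the filter. Of 11 other receptors and R-spondins 5 were tested, and of 8 adherens junction partners of β-catenin 6 were tested. None was called in limma-trend with either siRNA. By adjusted p alone 4 and 5 passed in the Si-KDM4C#1 comparison, where 65.7% of all genes did. In the Si-KDM4C#2 comparison 4 and 4 passed, where 59.4% of all genes did. Of 15 planar cell polarity genes 9 were tested, and SCRIB, a polarity scaffold, was called higher with Si-KDM4C#1 (1.43, limma-trend, adjusted p = 1.06e-07). That was 11.1% of the 9, where 8.87% of all genes were called.

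Of 32 genes known as targets of the pathway in some tissue, 28 were listed and 16 tested. With Si-KDM4C#1, MYC, JUN, FOSL1 and ETV4 were called higher and ID2 lower, 5 of 16 (31.2%, where 8.87% of all genes were called). With Si-KDM4C#2, FOSL1 and ETV4 were called higher and CCND1 and ID2 lower, 4 of 16 (25.0%, where 4.89% of all genes were called). FOSL1, a subunit of AP-1, was at 4.07, 3.63 and 3.99 FPKM in Scramble, 21.7, 26.3 and 29.8 FPKM with Si-KDM4C#1 and 9.71, 8.65 and 8.11 FPKM with Si-KDM4C#2. ID2, an inhibitor of helix-loop-helix factors, was at 23.2, 26.3 and 24.5 FPKM in Scramble, 7.73, 6.99 and 7.90 FPKM with Si-KDM4C#1 and 7.26, 8.60 and 8.43 FPKM with Si-KDM4C#2. FOSL1 stood above and ID2 below Scramble in all 6 knockdown libraries.

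CCND1, the G1 cyclin D1, was at 32.9, 30.7 and 29.4 FPKM in Scramble, 47.6, 48.6 and 49.7 FPKM with Si-KDM4C#1 and 12.9, 11.5 and 11.7 FPKM with Si-KDM4C#2. CCND1 rose by 0.63 (limma-trend, adjusted p = 4.58e-06) with the former and fell by 1.29 (limma-trend, adjusted p = 1.03e-07) with the latter. MYC, a growth-promoting transcription factor, rose from 113 ± 6.84 FPKM to 326 ± 16.1 and 165 ± 3.28 FPKM (SD, n = 3 each, limma-trend, adjusted p = 1.88e-08 and 1.43e-05). The median log2 fold change over the 16 tested targets was 0.11 for Si-KDM4C#1 and -0.07 for Si-KDM4C#2, so they did not move one way as a list.

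**Figure D5:**
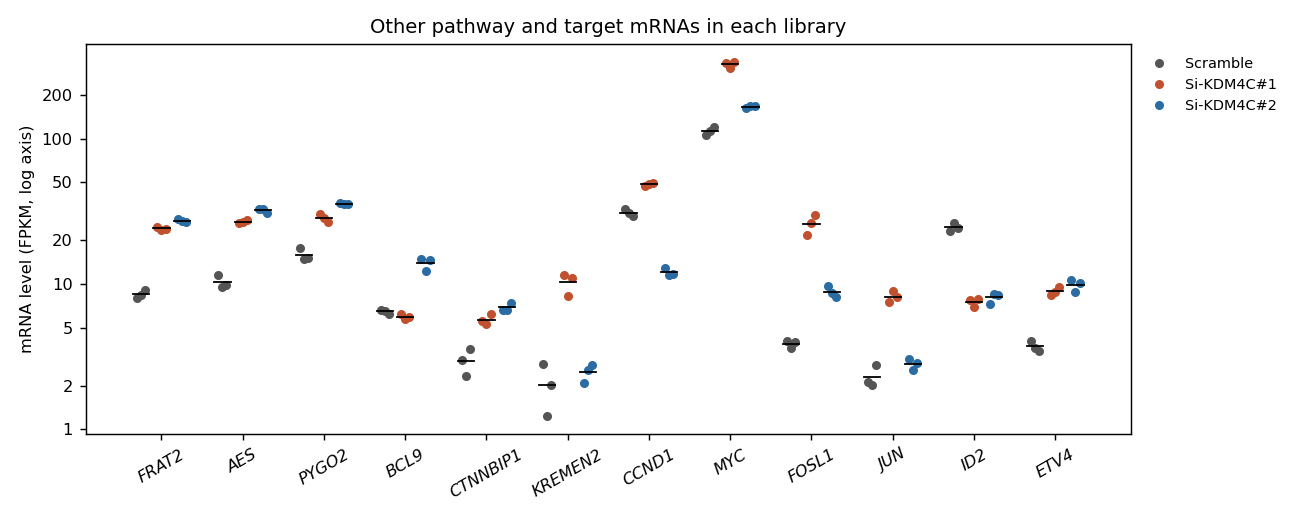
mRNA level in FPKM (log axis) of 12 other pathway and target genes in the 3 libraries of each group; points are libraries and bars are group means. FRAT2 and AES are higher and ID2 is lower in all 6 knockdown libraries, while CCND1 is at 47.6 to 49.7 FPKM with Si-KDM4C#1 and at 11.5 to 12.9 FPKM with Si-KDM4C#2.

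Around WNT6, 43 other genes within 500 kb were listed and 20 were tested. With Si-KDM4C#1, 1 of the 20 was called higher and 1 lower, where 8.87% of all genes were called. With Si-KDM4C#2, 1 of the 20 was called lower and 0 higher, where 4.89% of all genes were called. PLCD4, a phospholipase gene 222.6 kb away, was called lower with both siRNAs, from 3.68 ± 0.355 FPKM to 0.633 ± 0.0622 and 1.24 ± 0.0770 FPKM (SD, n = 3 each, limma-trend, adjusted p = 3.38e-07 and 5.58e-06). CNPPD1, 297.7 kb away, was called higher with Si-KDM4C#1 (1.41, limma-trend, adjusted p = 3.15e-07). It also rose under 2-fold with Si-KDM4C#2 (0.75, limma-trend, adjusted p = 2.91e-05). WNT10A, the ligand gene 6.1 kb from WNT6, was at 0.234 ± 0.0799, 0.186 ± 0.0828 and 0.177 ± 0.115 FPKM (SD, n = 3 each), near the floor, with overlapping groups. The median log2 fold change over the 20 neighbours was -0.01 for Si-KDM4C#1 and -0.02 for Si-KDM4C#2.

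WNT6 exons are rich in G and C, at 70.5% against a median of 48.2% over the genes tested. They lie past the 95th percentile of 64.1%, where a GC fit rests on few genes. Adjustment of each library for exon GC content gave WNT6 a log2 fold change of -1.50 for Si-KDM4C#1 (limma-trend, adjusted p = 7.95e-07) and of -1.46 for Si-KDM4C#2 (limma-trend, adjusted p = 1.57e-06). The libraries were adjusted in order, so these values depend on that order and part of a GC trend may remain. RefSeq promoters (GRCh38.p14, 250 bases before to 50 after the start) were matched for 30 of the 44 genes. LEF1 was among these, and AXIN2, LGR5, NKD1, NOTUM and ZNRF3 were not. The TCF/LEF core CTTTGAT, sought on both strands, was in 0 of these 30 windows and in 2.64% of 27305 promoters. With so small a share over all promoters, 30 windows are too few to show a difference.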

How the data were processed

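RNA sequencing of cells labelled Huh7 (Scramble, Si-KDM4C#1, Si-KDM4C#2, 3 libraries each) was used. The authors deposited 1 list of FPKM values for each library. The submitters' processing notes name FastQC 0.11.5, HISAT2 2.1.0, StringTie 1.3.3b, featureCounts, DESeq 1.28.0 and GRCh38, without roles or a strand setting. With GENCODE release 29 exon lengths, 97.54% to 97.68% of the non-zero values were whole fragments (tolerance 0.05), and 3 fragments, the floor, equal 0.166 to 0.206 FPKM where the exons total 1 kb, and less for longer genes, which covers counting error only. Pairs of libraries within a group exceeded counting noise, with a chi-square of 2.56 to 5.75 per degree of freedom.

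The 14363 genes whose mean reached 1 FPKM in 1 or more groups were compared on log2(FPKM + 1) with limma-trend (limma 3.58.1, R 4.3.3), all 9 libraries in 1 fit, with Benjamini-Hochberg adjustment, and called at FDR under 0.05 and fold change over 2. Genes under the filter came from the same fit over all listed genes. Such a fold change understates that of weakly expressed genes. The fit was tried on simulated data in which the changed genes moved by well over 2-fold, so the trial does not bear on calls near that limit. Python 3.11.15, numpy 2.4.6, pandas 2.3.3, scipy 1.17.1 and matplotlib 3.10.9 served for fragments, permutation tests, sequences and plots.

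Values per library were given for WNT6, for members called in any comparison, for the member of each role with the highest mean over all 9 libraries, and for AXIN2, CTNNB1 and LGR5; other members with values per library (WNT9A, FZD2, NOTUM, TCF7L2) were added after their values were seen, FZD2, NOTUM and TCF7L2 being the most abundant of their roles in Scramble alone. In each further list, values were given for at most 4 called genes. Members and lists were chosen with earlier results of these data known. Alternatives were no filter, 1 FPKM in every library, a pseudocount of 0.1 FPKM, quantile and median-ratio scaling, limma voom on fragments (at least 10 in at least 3 libraries, 16010 genes), a lowess GC adjustment (span 0.3, 14343 genes), separate fits, no fold change limit, a replicate block and leaving out each library. In the GC adjustment, libraries were taken in order, each against the mean of all libraries after earlier ones had been adjusted. All GC-adjusted values therefore depend on that order, and part of a GC trend between groups may remain.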

Additional observations from a re-analysis of the deposited data

Results flagged for a closer look

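The siRNAs differed from each other past both limits in 3 genes of the list, by the direct limma-trend comparison. With Si-KDM4C#2 minus Si-KDM4C#1 as the log2 difference, PORCN was at -1.52 and DVL2 at 1.20, and for both genes the libraries of one siRNA lay above and those of the other below all Scramble libraries. LGR4 was higher with Si-KDM4C#2 by 1.18, and lay below Scramble with both siRNAs. Under 2-fold in this fit, the siRNAs moved 5 further genes opposite ways from Scramble, with direct log2 differences of -0.65 for FZD5, -0.47 for CTNNB1, -0.47 for ZNRF3, 0.96 for NOTUM and -0.55 for WLS. Of these, CTNNB1 with Si-KDM4C#1 turned to -0.04 under quantile normalization and NOTUM with Si-KDM4C#2 to -0.07 after GC adjustment, so that their opposite directions were lost there. WNT9A, with a direct difference of -0.94, passed 2-fold under quantile normalization (-1.06), median-ratio scaling (-1.01), a pseudocount of 0.1 FPKM (-1.27) and limma voom (-1.42). With limma voom, FZD5 (-1.03), DKK1 (-1.02), NOTUM (1.04) and WNT3 (1.08) also passed 2-fold between the siRNAs. So did NOTUM (1.14) and WNT3 (1.16) with a pseudocount of 0.1 FPKM. The residual KDM4C mRNA, the siRNA sequences and the marker sums also differed between these groups, and their part was not tested.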

How the results depend on the processing

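The number of genes called with Si-KDM4C#1 (4) was 8 with limma voom on fragments and 28 with no fold change limit, and 3 to 5 with each library left out. With Si-KDM4C#2 (2) it was 1 with median-ratio scaling, 4 with limma voom and 26 with no fold change limit, and 1 to 2 with each library left out. Between the siRNAs (3) it was 6 with a pseudocount of 0.1 FPKM, 8 with limma voom and 24 with no fold change limit, and 3 to 4 with each library left out. The limma voom counts are not over the same 34 genes. They include LGR5 (both siRNAs) and WNT5B (Si-KDM4C#1), which were below the filter, and leave out DVL3 and GSK3B, whose fragments were not recovered. The share of all genes called with limma voom is not given here. The log2 fold change of WNT6 with each library left out was -1.27 to -1.07 with Si-KDM4C#1, -1.12 to -0.97 with Si-KDM4C#2, and 0.03 to 0.24 between them. In the alternatives that keep all libraries of a comparison its adjusted p was 1.64e-10 to 1.06e-04 and 1.70e-10 to 3.13e-04. CTNNB1 with Si-KDM4C#1 turned to -0.0368 under quantile normalization, and the cause was not tested. By adjusted p alone, 10 rose and 12 fell with Si-KDM4C#2 after GC adjustment, against 14 and 12. Deviations from the group mean in same-numbered libraries of different groups had a mean correlation of 0.0162 over 9 pairs (-0.0461 to 0.0546). For libraries with different numbers it was -0.0081 over 18 pairs (-0.0529 to 0.0635). Correlations this small, with overlapping ranges, cannot decide whether the numbers pair the libraries. With the replicate block the counts of called genes were 4, 2 and 3. AXIN2, NKD1, NKD2 and SFRP1 held 0 to 7 fragments a library, too few at this depth to show a change.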
